A study of Mus musculus with 6 samples.

Results

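The genes described here are 39 genes of the unfolded protein response and of the amino acid response driven by ATF4, taken by symbol from a table of 24062 genes in RAW264.7 cells, a mouse macrophage line. All 39 were found. They were kept apart as 18 genes of the endoplasmic reticulum (ER), 14 ATF4 amino acid genes, and 7 sensors and regulators. Of the ER genes, 14 encode chaperones and folding enzymes and 4 encode parts of ER degradation. Trib3 and Chac1, feedback genes of ATF4 rather than amino acid genes, were counted among the ATF4 amino acid genes, and Ppp1r15a among the regulators.

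When unfolded proteins build up in the ER, 3 sensors respond: IRE1, which splices the mRNA of Xbp1, ATF6, which is cut to release a transcription factor, and PERK, which phosphorylates eIF2α. XBP1 and ATF6 are known to switch on chaperone and degradation genes. Phosphorylated eIF2α lowers general translation but favours translation of ATF4, which switches on genes of amino acid synthesis, amino acid import and tRNA charging, so that ATF4 activity need not follow Atf4 mRNA. Macrophages secrete large amounts of protein when activated, and both branches are known to be engaged by inflammatory stimuli.

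RNA-seq was performed in 6 conditions with 1 library each. M0 macrophages were left unpolarized, M1 macrophages received LPS at 100 ng/mL with IFN-γ at 20 ng/mL for 24 h, and M2 macrophages received IL-4 at 20 ng/mL for 24 h. RM0, RM1 and RM2 were the same 3 states given 10 Gy of gamma rays from a cesium source and kept for a further 24 h. RNA of 5 wells was pooled for each library, so the spread between wells was not measured. Whether the non-irradiated cells were also kept for the additional period is not stated, so irradiation and time in culture cannot be told apart. Bone marrow is given as the tissue in the labels, while the same labels and the methods name the RAW264.7 line. It is an established line, and what is measured in it is that of 1 line.

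Counts per library ran from 17894937 to 18870516. All 8 macrophage markers examined were measured in every library, and Lyz2 had between 199329 and 580239 counts. Of 7 markers of other cell types, Col1a2, Cd3e and Epcam had 0 counts in all 6 libraries (3 counts in a library of this size is the limit that a count of 0 allows), and Col1a1, Cd79a and Cdh5 did not exceed 11. For Dcn, a fibroblast marker, 627 counts were found in M1 and 726 in RM1, against 113 to 177 in the other 4 libraries. Its higher count in M1 and RM1 moved with the M1 differences of the members, and its part in them was not tested. In bulk RNA, fewer cells with a transcript and less of it per cell cannot be told apart.

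The promoters that carry the known control letters are shown first, because their sequences do not depend on the counts. Both the members and the motifs were chosen as known parts of these pathways, with earlier results of these data known. The shares of members with a motif, set beside those of all genes, are therefore a description and no independent support. RefSeq promoter windows (GRCm38.p6, 250 bases before to 50 after the transcription start) were matched for 33 members; Manf, Hyou1, Atf6, Slc7a5, Wars and Nars had none. The ER stress element was searched as CCAAT and CCACG 9 bases apart, its second form as ATTGG and CCACG 1 base apart, the XBP1 element as TGACGTG, and the C/EBP-ATF element, to which ATF4 with a C/EBP partner binds, as TTNCATCA, each on both strands. The Hspa5 promoter up to its start, chr2:34771840-34772089 on the plus strand, is printed whole as the reference case, with the XBP1 element and then the ER stress element in capitals.
Hspa5: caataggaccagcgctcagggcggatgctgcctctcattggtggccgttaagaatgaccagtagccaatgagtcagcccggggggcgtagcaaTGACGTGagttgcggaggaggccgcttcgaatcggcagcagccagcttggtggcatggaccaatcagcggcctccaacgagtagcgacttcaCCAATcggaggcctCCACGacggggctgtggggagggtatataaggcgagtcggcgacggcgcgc
The ER stress element starts 65 bases and the XBP1 element 157 bases before the start of Hspa5.

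Shorter stretches of 40 bases show the same element in other ER genes, with its letters in capitals and the sequence read along the gene. They lie at chr8:84847065-84847104 for Calr (minus strand), chr15:88819509-88819548 for Creld2 (plus strand), chr10:86705628-86705667 and chr10:86705523-86705562 for both matches of Hsp90b1 (minus strand) and chr11:50325790-50325829 for Canx (minus strand).
Calr: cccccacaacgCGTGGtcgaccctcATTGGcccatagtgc
Creld2: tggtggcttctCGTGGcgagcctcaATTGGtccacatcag
Hsp90b1 first: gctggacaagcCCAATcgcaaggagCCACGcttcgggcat
Hsp90b1 second: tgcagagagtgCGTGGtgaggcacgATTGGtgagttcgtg
Canx: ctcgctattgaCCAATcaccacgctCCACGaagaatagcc
The element is reversed in Calr, in Creld2 and in the second match of Hsp90b1. It was present in 8 of the 33 members with a window, all of them ER genes, against 0.137% of 27025 genes. The 8 were Hspa5, Hsp90b1, Pdia6, Calr, Canx, Dnajc3, Creld2 and Syvn1. The second form was present in Dnajb11 and Herpud1, against 0.0444% of all genes. For some members the transcription start of the window lay far from the gene start in the deposited coordinates. The distance was 20558 bases for Dnajb11, 4817 for Syvn1 and 9472 for Slc3a2, whose window held no match.

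The ATF4 amino acid genes carried the other letters. The C/EBP-ATF element was present in 5 of their 11 windows, namely those of Trib3, Chac1, Asns, Aars and Gars, and in Herpud1, against 4.51% of all genes. The 4 stretches below are shown because these genes took different courses in M1: chr2:119351033-119351072 for Chac1 (plus strand), chr2:152344028-152344057 for Trib3 (minus strand, 30 bases, with the match 14 bases after the start), chr6:7693210-7693249 for Asns (minus strand, reversed) and chr8:94386301-94386340 for Herpud1 (plus strand).
Chac1: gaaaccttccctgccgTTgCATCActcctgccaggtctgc
Trib3: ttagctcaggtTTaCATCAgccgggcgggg
Asns: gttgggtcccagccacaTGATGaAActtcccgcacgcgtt
Herpud1: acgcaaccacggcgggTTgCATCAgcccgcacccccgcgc
An interferon element, searched as GAAA and GAAA 2 bases apart, was found in Ppp1r15a alone among the 33 members, against 3.99% of all genes. A match of letters is a description of the window and no evidence that a factor was bound there.

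**Figure D1:**
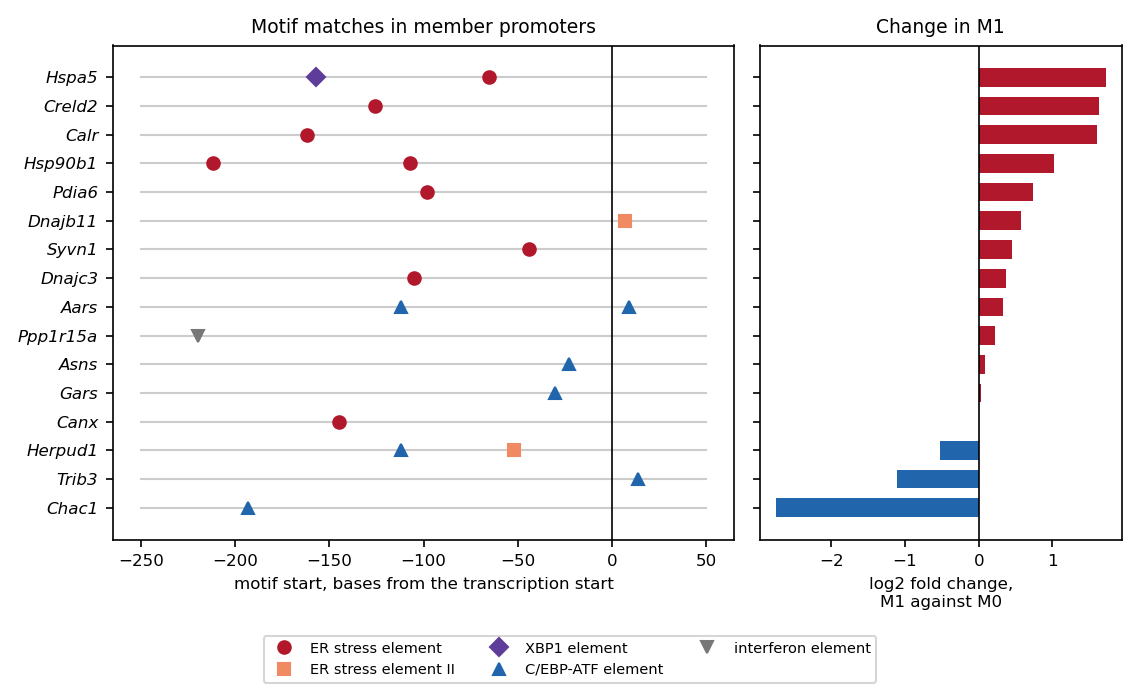
Motif matches in the promoters of the 16 members that hold any, at their distance in bases from the transcription start (left), and the log2 fold change of the same genes in M1 against M0 as bars (right). The genes are ordered by their change in M1, from Hspa5 at 1.72 to Chac1 at -2.75, and the C/EBP-ATF element occurs from Aars at 0.33 down to Chac1. Ddit3, at 2.10 in M1, has a window without a match and is not shown.

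The members were first compared between M1 and M0. Levels are given as scaled CPM, that is, a gene's counts relative to the library's total after adjustment by the TMM method of edgeR, and changes as log2 fold changes of these with a prior count of 2. A gene was called between 2 libraries at a 2-fold difference with at least 10 counts in 1 of them, and bracketed intervals are exact 95% Clopper-Pearson intervals that cover counting error only. All 39 members could be called. Between M1 and M0, 6 were called higher, where 8.98% of 11778 genes were, and 4 were called lower, where 13.7% were, so the number called in both directions together was near the share of all genes. Those higher were Hspa5, Calr, Creld2, Manf, Hsp90b1 and Ddit3, and those lower were Chac1, Trib3, Slc7a5 and Shmt2. Such a call compares 2 libraries and carries no p.

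The ER chaperones were led by Hspa5, which encodes BiP, the main HSP70 of the ER lumen. Hspa5 (chromosome 2 of GRCm38, 34772090 to 34776529) measured 2276 scaled CPM in M0, 2183 in M2 and 7498 in M1 without irradiation, and 1802 in RM0, 1856 in RM2 and 4343 in RM1 with it. M1 and RM1 stood above the other 4 libraries, and RM1 stood well below M1. M1 against M0 gave a log2 fold change of 1.72 (1.70 to 1.74), and RM1 against RM0 one of 1.27 (1.25 to 1.29). As a share of the library total, without TMM adjustment, Hspa5 alone took 0.609% of all counts in M1 (exact interval 0.605 to 0.612%) and 0.247% in M0 (0.244 to 0.249%).

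Calreticulin and the HSP90 of the ER followed. Calr (chromosome 8, 84842088 to 84846931), a calcium-binding lectin chaperone, measured 964 scaled CPM in M0, 908 in M2 and 2919 in M1 without irradiation, and 915 in RM0, 821 in RM2 and 1846 in RM1 with it. Hsp90b1 (chromosome 10, 86690841 to 86705444), which encodes GRP94, measured 765 in M0, 795 in M2 and 1556 in M1 without irradiation, and 592 in RM0, 721 in RM2 and 1367 in RM1 with it. Both were highest in M1 and next highest in RM1, but the gap between those libraries was wide for Calr and narrow for Hsp90b1. M1 exceeded M0 by a log2 fold change of 1.60 for Calr (1.57 to 1.62) and 1.02 for Hsp90b1 (0.994 to 1.05), and RM1 exceeded RM0 by 1.01 for Calr (0.987 to 1.04) and 1.21 for Hsp90b1 (1.17 to 1.24).

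Manf and Creld2, small ER-resident proteins that are secreted under stress, showed the same order of libraries. Manf (chromosome 9, 106887415 to 106891938) measured 213 scaled CPM in M0, 199 in M2 and 517 in M1 without irradiation, and 178 in RM0, 162 in RM2 and 298 in RM1 with it. Creld2 (chromosome 15, 88819646 to 88826681) measured 89.3 in M0, 85.0 in M2 and 277 in M1 without irradiation, and 71.8 in RM0, 58.2 in RM2 and 148 in RM1 with it. For both, every library other than M1 and RM1 lay below the RM1 value. The difference in M1 was 1.28 for Manf (1.22 to 1.33) and 1.63 for Creld2 (1.55 to 1.71), and among irradiated cells 0.74 for Manf (0.679 to 0.805) and 1.04 for Creld2 (0.945 to 1.14).

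**Figure D2:**
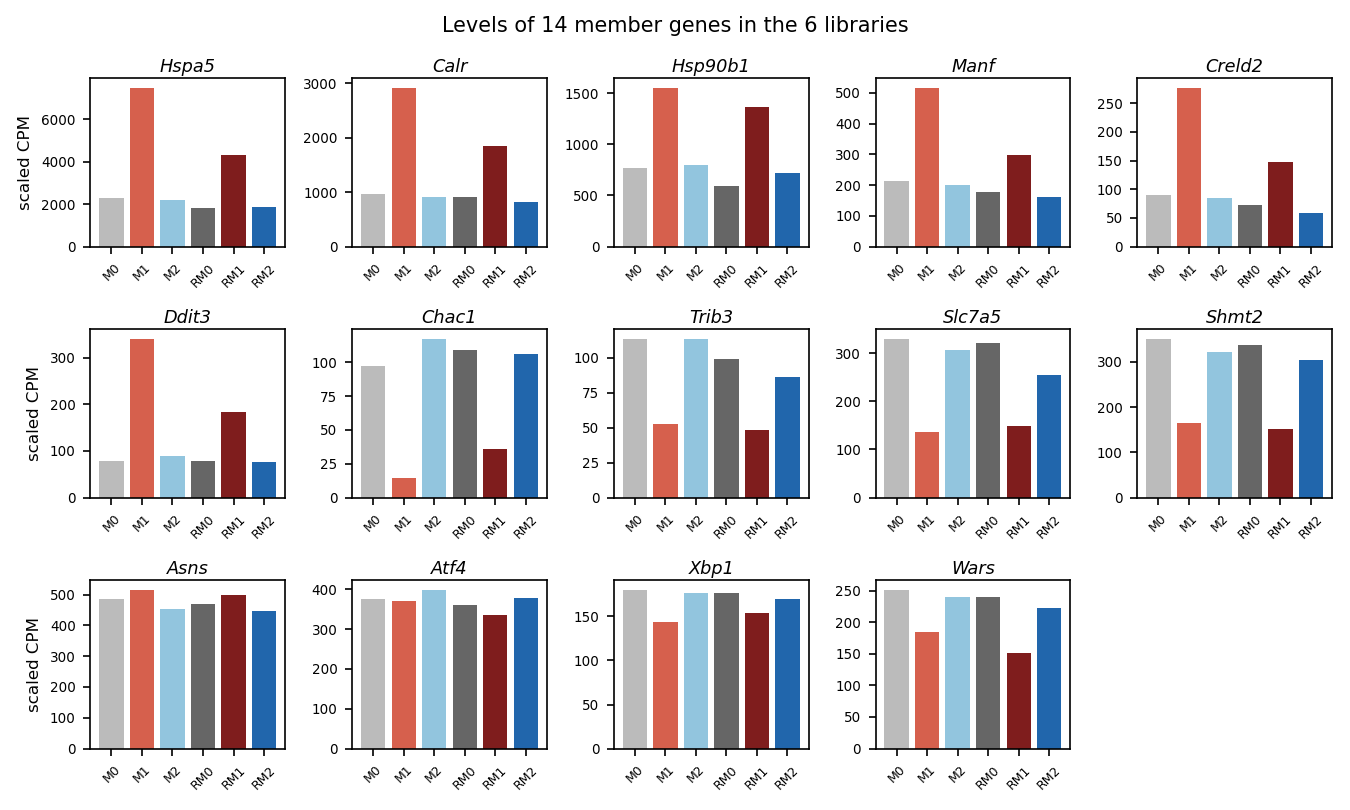
Scaled CPM of 14 members in each of the 6 libraries, as bars that start at 0, 1 library per bar. The first 6 genes stand highest in M1, Chac1, Trib3, Slc7a5 and Shmt2 stand lowest in M1 or RM1, and Asns and Atf4 are nearly level.

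Over the 14 chaperones and folding enzymes, 13 lay above 0 in M1 against M0, where 47.5% of all genes did, and the median log2 fold change was 0.72 against -0.05 over all genes. The protein disulfide isomerases, which form and rearrange disulfide bonds, were higher by 0.85 for Pdia4, 0.74 for Pdia6 and 0.69 for Pdia3. The remaining values were 0.57 for Dnajb11, 0.36 for Dnajc3, both co-chaperones of BiP, 0.45 for Sdf2l1, a partner of the ER DNAJ proteins, and 0.43 for Hyou1, an exchange factor of BiP. Canx, the membrane-bound relative of calreticulin, was at 0.00 (-0.0373 to 0.0461) and Dnajb9, a BiP co-chaperone known as a target of XBP1, was at -0.12 (-0.282 to 0.0466). The group was thus not uniform. Together, again without TMM adjustment, these 14 genes held 1.34% of all counts in M1 (1.336 to 1.347%) and 0.751% in M0 (0.747 to 0.755%). In M1 against M0 the 10 ER genes with either form of the ER stress element ranged from -0.53 to 1.72 with a median of 0.66. Of them 4 were called higher at 2-fold, where 8.98% of all genes were. The 6 with a window and neither form ranged from -0.12 to 0.85 with a median of 0.49. Of these 0 were called, where 8.98% of all genes were called higher and 13.7% lower. The ranges overlapped, and no test was made of the difference. The 5 ATF4 amino acid genes with the C/EBP-ATF element had a median of 0.025, with 2 called lower. The 6 with a window and no such element had a median of 0.177, with 1 called lower, where 13.7% of all genes were. Those ranges overlapped too, and that difference was not tested either.

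The ER degradation genes divided. Edem1, a lectin that directs misfolded glycoproteins out of folding, was at 0.52 in M1 against M0, Syvn1, the ubiquitin ligase HRD1, at 0.46, and Sel1l, its partner, at 0.37. Herpud1, a membrane component of the same complex, was at -0.53 (-0.59 to -0.465) and, among irradiated cells, at -0.41 (-0.467 to -0.346). It is the ER gene whose window also holds the ATF4 letters.

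Among the sensors and regulators, Ddit3 stood apart. Ddit3 (chromosome 10, 127290793 to 127296288), which encodes the pro-apoptotic factor CHOP, measured 79.2 scaled CPM in M0, 88.3 in M2 and 340 in M1 without irradiation, and 77.7 in RM0, 75.3 in RM2 and 182 in RM1 with it. The 4 libraries without LPS and IFN-γ lay close together, and M1 exceeded RM1. The log2 fold change was 2.10 in M1 (2.02 to 2.18) and 1.23 in RM1 against RM0 (1.14 to 1.32). Exons of Ddit3 overlap those of Mars on the other strand, the methionyl-tRNA synthetase gene, over 3.97% of their bases. That neighbour was at -0.10 in M1 against M0. Larger overlaps on the other strand were found for Hsp90b1 (10.29%, with 1810014B01Rik), Eif2ak3 (8.05%, with Gm43292) and Manf (4.71%, with 4930524O07Rik). The strand setting of the counting was not given, and the part of these overlaps in the counts was not tested.

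The transcripts of the master regulators themselves moved little. Atf4 (chromosome 15, 80255184 to 80257545) measured 377 scaled CPM in M0, 399 in M2 and 370 in M1 without irradiation, and 361 in RM0, 378 in RM2 and 336 in RM1 with it. Its log2 fold change was -0.02 in M1 (-0.0739 to 0.0268). Xbp1 (chromosome 11, 5520641 to 5525993) measured 180 in M0, 176 in M2 and 144 in M1 without irradiation, and 177 in RM0, 170 in RM2 and 154 in RM1 with it. M1 and RM1 were thus the lowest libraries for Xbp1, with -0.32 in M1 (-0.401 to -0.246) and -0.20 in RM1 (-0.273 to -0.124). Spliced and unspliced Xbp1 mRNA are counted together in a gene table, so splicing by IRE1 was not measured. Of the sensors, Eif2ak3, which encodes PERK, was at 0.37 in M1 and 0.61 in RM1, Ern1, which encodes IRE1α, at -0.08 and -0.02, and Atf6 at -0.08 and 0.16. Ppp1r15a, which encodes GADD34, the subunit that directs dephosphorylation of eIF2α, was at 0.22 in M1 and -0.28 in RM1.

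The ATF4 amino acid genes lay on both sides of 0 in M1 against M0, with 7 above and 7 below, and those called were all lower. Chac1 (chromosome 2, 119351242 to 119354327), which encodes an enzyme that degrades glutathione, measured 97.5 scaled CPM in M0, 117 in M2 and 14.4 in M1 without irradiation, and 109 in RM0, 106 in RM2 and 36.2 in RM1 with it. Behind these stood 1929 counts in M0 and 216 in M1. M1 was far below every other library and RM1 was next. The log2 fold change was -2.75 in M1 (-2.97 to -2.56) and -1.59 in RM1 (-1.73 to -1.46). Trib3 (chromosome 2, 152337425 to 152344060), a pseudokinase that restrains ATF4 and CHOP, measured 114 in M0, 113 in M2 and 52.6 in M1 without irradiation, and 99.4 in RM0, 86.0 in RM2 and 48.5 in RM1 with it. Here M1 and RM1 were alike, at -1.11 (-1.23 to -0.994) and -1.03 (-1.16 to -0.916) against their unpolarized counterparts. Ddit3 on one hand and Trib3 and Chac1 on the other thus lay on opposite sides of 0 in the same libraries.

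Amino acid import and one-carbon synthesis each had 1 member called lower. Slc7a5 (chromosome 8, 121881146 to 121907686), the light chain of the large neutral amino acid transporter LAT1, measured 330 scaled CPM in M0, 308 in M2 and 136 in M1 without irradiation, and 322 in RM0, 255 in RM2 and 148 in RM1 with it. Its heavy chain Slc3a2, which also serves other light chains, was at 0.28 in M1 and 0.04 in RM1, whereas Slc7a5 was at -1.28 (-1.35 to -1.21) and -1.12 (-1.18 to -1.05). Shmt2 (chromosome 10, 127517123 to 127522444), which encodes the mitochondrial serine hydroxymethyltransferase, measured 351 in M0, 321 in M2 and 165 in M1 without irradiation, and 337 in RM0, 304 in RM2 and 152 in RM1 with it. Shmt2 was at -1.09 in M1 (-1.15 to -1.02) and -1.15 in RM1 (-1.22 to -1.09), a difference of the same size in both settings.

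Other enzymes of the same routes differed less from M0. Asns (chromosome 6, 7675171 to 7693182), asparagine synthetase and a standard reporter of ATF4 activity, measured 486 scaled CPM in M0, 452 in M2 and 516 in M1 without irradiation, and 468 in RM0, 448 in RM2 and 499 in RM1 with it. Its log2 fold change was 0.09 in both M1 (0.042 to 0.129) and RM1 (0.0486 to 0.135). Psat1, of serine synthesis, was at 0.34 in M1 and 0.01 in RM1, and Mthfd2, of mitochondrial folate metabolism, at 0.07 and -0.07. Phgdh, the first enzyme of serine synthesis, was at -0.19 and -0.53. Windows of 100 bases of the longest Phgdh transcript were shared with pseudogenes in 37.3% of cases, so its counts are uncertain.

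The 5 cytosolic tRNA synthetases, each of which charges 1 amino acid, spread on both sides of 0. Wars (chromosome 12, 108860030 to 108894174), the tryptophanyl enzyme, known also as an interferon-inducible gene, measured 251 scaled CPM in M0, 240 in M2 and 185 in M1 without irradiation, and 240 in RM0, 222 in RM2 and 151 in RM1 with it. M1 and RM1 were the lowest libraries, with -0.44 in M1 (-0.511 to -0.377) and -0.67 in RM1 (-0.738 to -0.597). In M1 Nars was at -0.28, Gars at 0.03, Aars at 0.33 and Sars at 0.57. Aars shares 21.7% of such windows with Exosc6, with which it overlaps.

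As a set the 14 ATF4 amino acid genes had a median of -0.08 in M1 against M0 and -0.08 in RM1 against RM0, with 7 and 8 below 0, while the 18 ER genes had medians of 0.55 and 0.51 with 16 above 0 in both, where 47.5% and 49.9% of all genes were. Between RM1 and RM0, 5 members were called higher, where 6.26% of 11713 genes were, and 4 lower, where 7.84% were; Manf was the called member of the non-irradiated comparison that was not called among irradiated cells. At a lower threshold of 1.5-fold, 10 members were higher in RM1 against RM0, where 14.9% of all genes were. These directions hold for TMM scaling. Scaling by library totals moved the median of all genes in M1 against M0 to -0.46, where the ER median was 0.13 and the ATF4 median -0.50. Under totals 11 members changed sign in M1 against M0, namely Canx, Dnajc3, Sel1l, Eif2ak3, Ppp1r15a, Asns, Psat1, Mthfd2, Slc3a2, Aars and Gars, and Manf and Hsp90b1 lost their 2-fold call, which left 4 members called higher, where 5.1% of all genes were, and 4 lower, where 25.3% were. In RM1 against RM0 under totals 10 members changed sign and Hsp90b1, Calr, Creld2 and Ddit3 lost their call, so that 1 member, Hspa5, was called higher, where 4.25% of all genes were, and 4 were called lower, where 12.7% were.

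The M1 difference was put to edgeR's quasi-likelihood test, with terms for state and irradiation and 11574 genes in the fit, in which M1 and RM1 stand in for replicates of the M1 state, with Benjamini-Hochberg adjustment over all genes at 0.05. In the M1 state 15 members rose and 7 fell, where 22.9% and 24.7% of all genes did. Of the 18 ER genes 12 rose and 1, Herpud1, fell. Of the 14 ATF4 amino acid genes 1, Sars, rose and 6 fell, namely Trib3, Chac1, Phgdh, Shmt2, Slc7a5 and Wars. Ddit3 and Eif2ak3 rose among the 7 regulators. The balance depended on the scaling. Under library totals 9 members rose and 14 fell, where 9.43% and 41% of all genes did. The calls of Dnajb11, Dnajc3, Edem1, Sel1l, Eif2ak3 and Sars as higher were then lost, and Xbp1, Atf4, Ern1, Ppp1r15a, Mthfd2, Gars and Nars passed as lower.

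By that edgeR test the effect in the M1 state was 1.503 for Hspa5 (SE 0.175, adjusted p = 8.29e-05), 1.34 for Creld2 (SE 0.147, adjusted p = 5.76e-05) and 1.68 for Ddit3 (SE 0.184, adjusted p = 5.77e-05). It was -2.09 for Chac1 (SE 0.267, edgeR adjusted p = 0.000147) and -1.12 for Shmt2 (SE 0.117, edgeR adjusted p = 4.36e-05). Asns did not pass, at 0.09 (SE 0.12, edgeR adjusted p = 0.571), and neither did Atf4, at -0.06 (SE 0.118, edgeR adjusted p = 0.693), or Xbp1, at -0.26 (SE 0.115, edgeR adjusted p = 0.085). The 10 members called in M1 against M0 all passed under each of the 12 alternatives tried. They were picked by their difference between M1 and M0, and most of these fits use the same 2 libraries again. Their passing is therefore no independent support, and the alternatives, which share libraries, are not separate checks. Phgdh and Sars, with edgeR adjusted p of 0.0435 and 0.0297, were the least stable, passing in 3 and 5 of the 12.

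**Figure D3:**
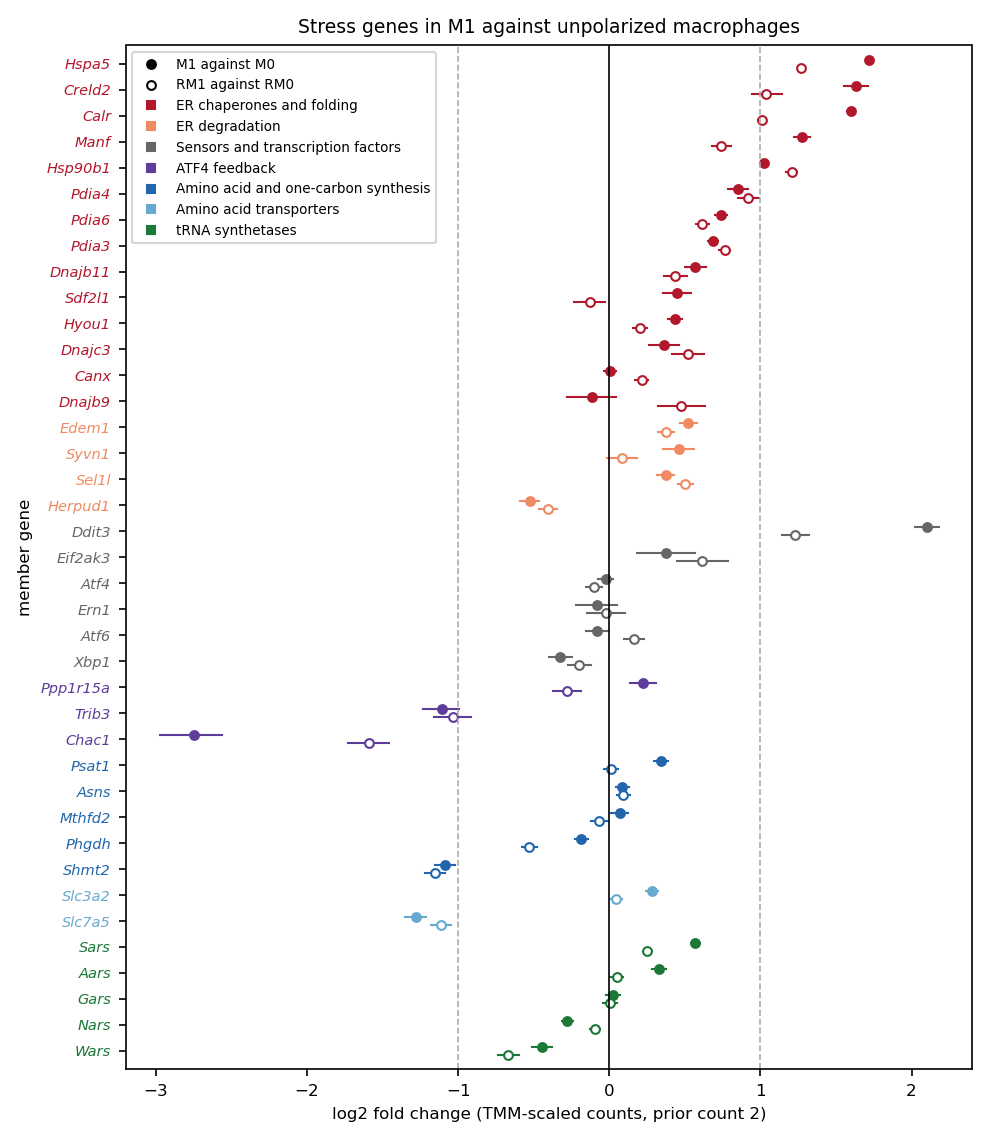
Log2 fold change of all 39 members in M1 against M0 (filled) and RM1 against RM0 (open), coloured by group, with exact 95% intervals for counting error and dashed lines at the 2-fold threshold. Most ER genes lie right of 0, from 1.72 for Hspa5, while Chac1, Trib3, Slc7a5 and Shmt2 lie left of -1 in both comparisons.

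The rest of the same pathways was read from lists of other known genes. Of 22 other ATF4 targets that could be tested, 1 rose and 17 fell in the M1 state by edgeR's test, where 22.9% and 24.7% of all genes did, and their median in M1 against M0 was -0.997. In that comparison 11 were called lower at 2-fold, where 13.7% of all genes were, and 1 higher, where 8.98% were. The gene called higher was Gdf15 at 1.48, which is named after its value was seen. Shmt1, the cytosolic counterpart of Shmt2, was at -3.16 (206 counts in M0 and 16 in M1), Cbs, of cysteine synthesis, at -2.58 (50 and 5 counts), Slc7a3, an arginine and lysine transporter, at -2.30 (80 and 11 counts) and Stc2, a secreted stress glycoprotein, at -2.28 (316 and 48 counts). Counts this low leave wide intervals, for instance -4.61 to -1.60 for Cbs. Among 15 other tRNA synthetases 1 rose and 7 fell.

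The other ER genes had smaller medians than the ER members. By the edgeR test 3 of 14 other folding and translocation genes and 3 of 11 other degradation genes rose, near the 22.9% of all genes that did, and 0 fell, where 24.7% did, with medians of 0.22 and 0.07 in M1 against M0. The 16 other sensors and factors were mixed, with 4 that rose and 5 that fell. Atf3, a stress factor downstream of ATF4 that Toll-like receptors are also known to induce, was at 1.93 in M1 (1.88 to 1.98) and 0.96 in RM1 against RM0 (0.912 to 1.02).

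**Figure D4:**
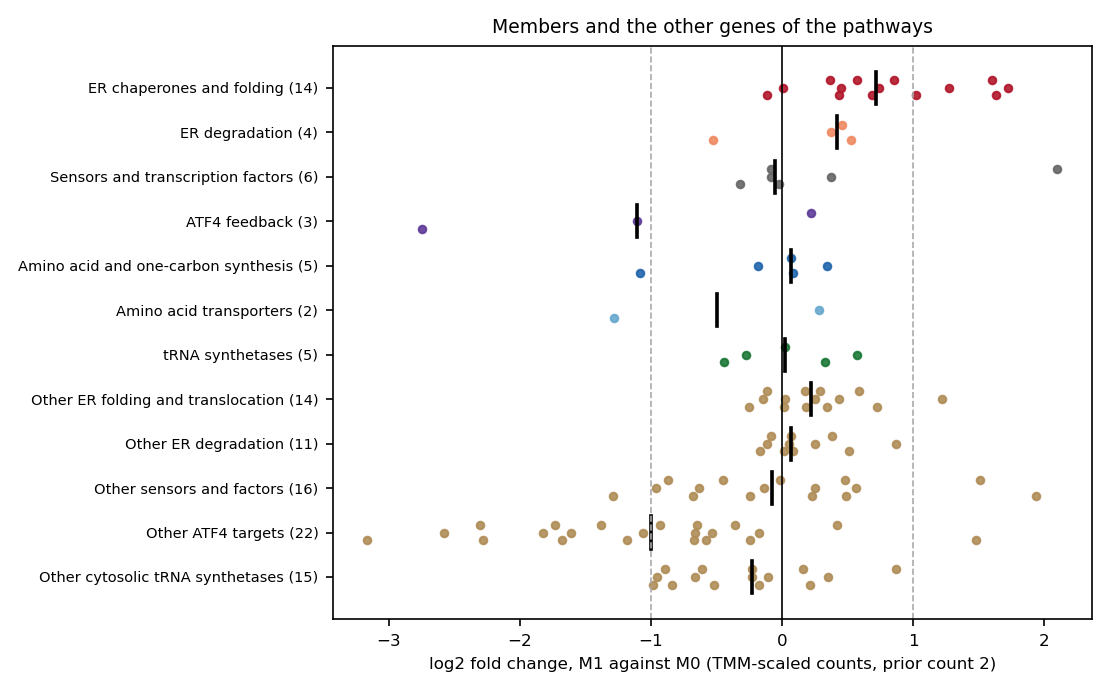
Log2 fold change in M1 against M0 of each gene in the 7 groups of members and in 5 lists of other pathway genes (brown), with the number measured in brackets and a black bar at the median. The ER chaperones centre at 0.72 and the other ATF4 targets at -0.997.

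With IL-4 the members stayed near their unpolarized level, as most of all genes did. In M2 against M0, 0 of 39 were called, where 1.44% of 11762 genes were, and values ran from -0.21 for Sars to 0.29 for Dnajb9. In RM2 against RM0, 0 were called, where 2.6% of 11748 genes were, and values ran from -0.39 for Sdf2l1 to 0.45 for Dnajb9. Dnajb9 had the highest value in both comparisons, which share no library. The ER median was -0.02 and -0.05, turning to 0.043 and 0.016 under library totals. The ATF4 median was -0.10 and -0.13, with -0.036 and -0.067 under totals and -0.052 and -0.043 after removal of the GC trend, an alternative added after the data were seen. Across all genes the change followed GC content with a Spearman coefficient of -0.35 in M2 against M0 and -0.61 in RM2 against RM0. By edgeR's quasi-likelihood test of the M2 state 0 members passed, where 0.242% of all genes did, with 1 at an unadjusted p under 0.05, where 10.3% of all genes were, a smallest adjusted p of 0.467 for Dnajb9, and 0 by DESeq2.

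Few members passed 2-fold after irradiation, as few of all genes did, and the chaperones lay mostly on one side of 0. Between RM0 and M0, 0 members were called, where 1.54% of 11688 genes were, and between RM2 and M2, 0 were called, where 1.97% of 11801 were. Between RM1 and M1 the 1 called member was Chac1, higher by 1.32 (1.10 to 1.56), where 3.23% of 11443 genes were higher. In RM0 it was at 0.16 against M0 and in RM2 at -0.15 against M2. The level of Chac1 in RM1, 36.2 scaled CPM, still lay below that of the 4 libraries without LPS and IFN-γ. Of members lower in RM1 than in M1, 0 reached 2-fold, where 2.09% of all genes did, and 6 reached 1.5-fold, where 6.72% did, namely Hspa5, Calr, Sdf2l1, Manf, Creld2 and Ddit3.

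The 14 chaperones were below 0 in 14 cases in RM0 against M0, where 49.6% of all genes were, in 12 in RM1 against M1, where 48.1% were, and in 13 in RM2 against M2, where 50.1% were. Their medians were -0.23, -0.30 and -0.19. These 3 comparisons share no library, and 12 of the 14 were lower in all 3, where 18.2% of 11574 genes were. Canx and Dnajb9 were the exceptions. Creld2 was at -0.91 in RM1 (-0.981 to -0.836), -0.55 in RM2 (-0.656 to -0.439) and -0.31 in RM0 (-0.417 to -0.213). Hspa5 was at -0.79 in RM1 (-0.801 to -0.774), -0.34 in RM0 (-0.358 to -0.317) and -0.23 in RM2 (-0.254 to -0.214).

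Hsp90b1 differed most in RM0, at -0.37, against -0.19 in RM1 and -0.14 in RM2, and Manf was at -0.26, -0.79 and -0.30. Across all genes the changes followed GC content, with Spearman coefficients of 0.22 in RM0, -0.37 in RM1 and -0.36 in RM2. The median GC content of the longest transcript was 48.2% for the chaperones and 49.7% for all genes in RM0 against M0. After the GC trend was removed 14, 13 and 14 of the 14 chaperones were below 0. With library totals 14, 12 and 14 of them were below 0.

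Of the 4 degradation genes 0 were lower in all 3 states, where 18.2% of all genes were, and Sel1l was higher in all 3, at 0.10, 0.23 and 0.11. Ddit3 was at -0.03 in RM0, -0.90 in RM1 (-0.966 to -0.835) and -0.23 in RM2. Of the sensor transcripts, Eif2ak3 was at 0.14, 0.39 and 0.19, Ern1 at 0.12, 0.18 and 0.11, and Atf6 between -0.07 and 0.18. Atf4 lay between -0.14 and -0.06 and was lower in all 3 states, where 18.2% of all genes were. The ATF4 amino acid genes had medians of -0.05, -0.12 and -0.08, and 7 of the 14 were lower in all 3 states, where 18.2% of all genes were. Under library totals these medians were -0.101, -0.01 and -0.13, and with the length trend removed that in RM1 was -0.018. Of the 21 other ATF4 targets measured in RM1 against M1, 3 were called higher, where 3.23% of all genes were. They were Ddit4 at 1.39 (1.27 to 1.52), an inhibitor of mTORC1, Slc7a3 at 1.05 (0.0958 to 2.31) and Slc38a2 at 1.02 (0.949 to 1.08), a neutral amino acid transporter. The M1 library enters both M1 against M0 and RM1 against M1, so the values of those comparisons are not independent.

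By edgeR's quasi-likelihood test of an irradiation effect shared by the 3 states, 0 members passed, where 0.458% of all genes did. At an unadjusted p under 0.05 there were 11, where 14.8% of all genes were, and DESeq2 called 1, Creld2, lower. The smallest edgeR adjusted p was 0.0637, for Creld2 at -0.59 (SE 0.119), which was lower in 3 of 3 states. For Hspa5 the shared effect was -0.45 (SE 0.14, edgeR adjusted p = 0.191) and for Manf -0.45 (SE 0.12, edgeR adjusted p = 0.142). Once 1 library of a state is left out, the other is fitted by its state term and adds nothing to the irradiation effect. Leaving out either library of a state is thus nearly the same fit, which rests on the other states, and is not a separate check. With the M1 or the RM1 library left out, 2 members passed as lower, the ER genes Hspa5 and Creld2. Of all genes, 546 of 11517 passed in either direction without M1 and 545 of 11514 without RM1. Without the M0 library or without the RM0 library 4 members passed as lower, namely Sdf2l1, Manf, Creld2 and Ddit3, where 2% and 1.98% of all genes did. Without M2 or without RM2 0 passed as lower and 1, Chac1, as higher, where 0.437% and 0.436% of all genes did.

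**Figure D5:**
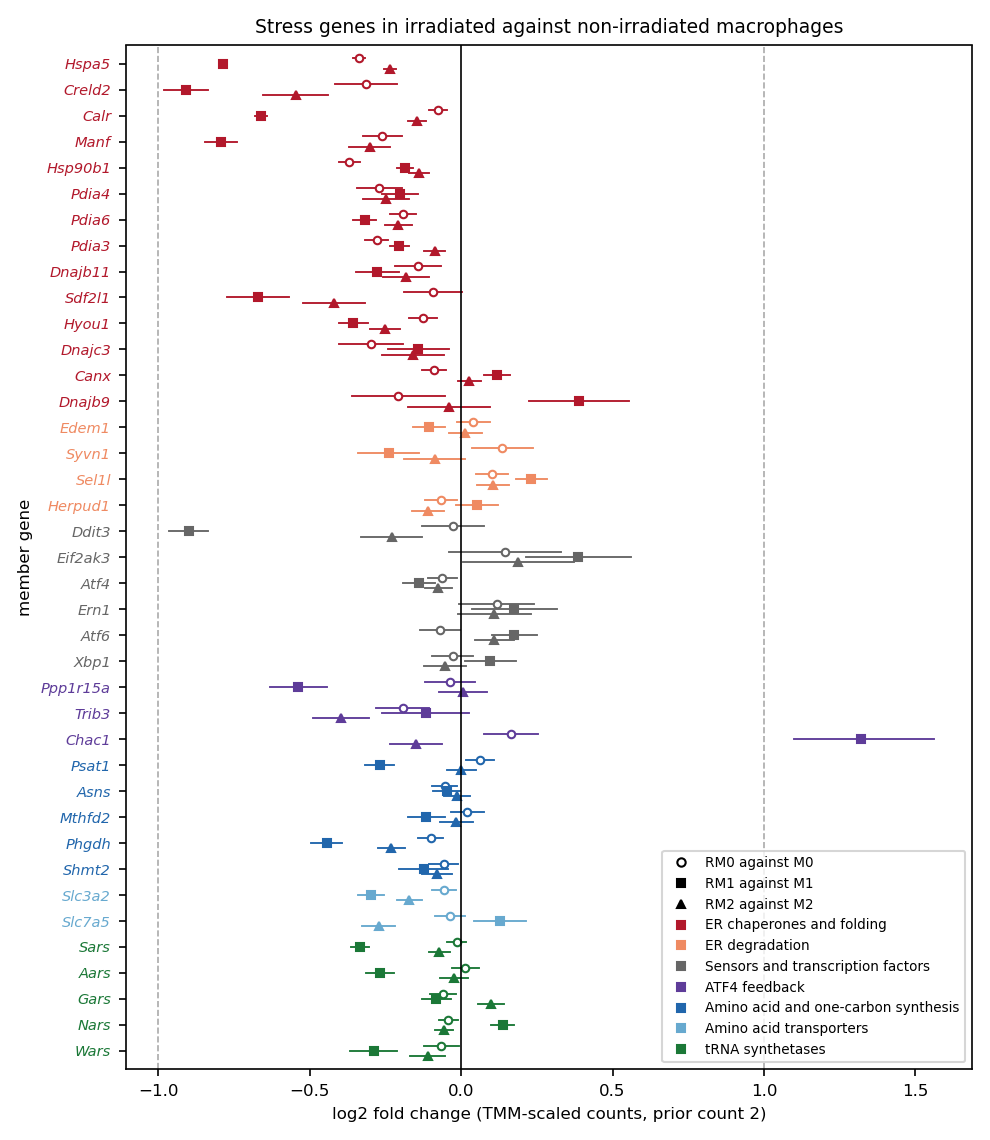
Log2 fold change of all 39 members in RM0 against M0 (open circles), RM1 against M1 (squares) and RM2 against M2 (triangles), with exact 95% intervals for counting error and dashed lines at the 2-fold threshold. The chaperones at the top lie mostly left of 0 in all 3 states, and Chac1 in RM1 at 1.32 is the only point past a dashed line.

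Polarization toward M1 was also compared with and without irradiation, since M1 against M0 and RM1 against RM0 share no library. The sign was the same for 34 of the 39 members, or 87.2%, and for 78.8% of 11922 genes. The size was smaller among irradiated cells for 24 members, or 61.5%, against 64.1% of all genes, so the members were near the share of all genes. Across the 39 members Spearman's rho between both sets of changes was 0.88, and across all genes 0.77. Genes of 1 library share its preparation and are not independent replicates. Hspa5, Calr, Creld2, Manf, Ddit3 and Chac1 were each further from 0 without irradiation, while Hsp90b1 was further from 0 with it and Trib3 and Shmt2 hardly differed.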

How the data were processed

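RNA-seq was analysed in 6 libraries of RAW264.7 macrophages, 1 per condition. The authors deposited raw read counts per gene, without normalization. The submitters' processing notes name Trimmomatic 0.36, HISAT2 2.2.1, HTSeq 0.11.3 and the mm10 build, whereas the annotation version and strand setting are not given in the sources used here. Counts per library ran from 17894937 to 18870516, and all intervals and the limit of 3 counts cover counting error only.

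From the counts, TMM factors over all genes and log2 fold changes with a prior count of 2 were computed in edgeR 4.0.16 (R 4.3.3). Levels are CPM of the scaled libraries. Shared effects were tested with edgeR's quasi-likelihood test, with state and irradiation as terms, on the 11574 genes that reached 10 counts in 3 or more libraries. The test assumes the same effect in each state and leaves 2 residual degrees of freedom. The SE printed with an effect is its size divided by the square root of the test's F statistic. It is not a separate estimate from replicates. Its check on simulated data covered only an irradiation effect of the same size in each state, without an M1 or M2 effect. The tests of the M1 and M2 states, and effects that differ between states, were not checked in this way. DESeq2 1.42.0, library totals, other filters, prior counts and thresholds, and each library left out were the alternatives, and removal of GC and length trends was added after the data were seen. Sequences, annotation and plots were handled in Python 3.11.15 (pandas 2.3.3, matplotlib 3.10.9), and exact intervals in R and scipy 1.17.1.

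The members, the lists of other pathway genes, the markers and the motifs were chosen with earlier results of these data known, and support for their direction is not independent. Values in every library were given for members called in any of 7 comparisons and for Hspa5, Xbp1, Atf4, Ddit3, Trib3, Asns and Wars. Of the other pathway genes, the 5 with the greatest change among those called in M1 and those called after irradiation were named. GENCODE gene models were used for overlap and shared sequence, and RefSeq for promoters. The deposited coordinates span 5.7% of the GENCODE gene for Dnajb11, 8.4% for Manf, 32.5% for Syvn1, 46.7% for Psat1, 56.3% for Pdia4 and 58.9% for Mthfd2. Of the exon bases of these genes they hold 38.1% for Dnajb11, 88.1% for Manf, 32.4% for Syvn1, 88.3% for Psat1, 38.9% for Pdia4 and 94.0% for Mthfd2. The exon share was also incomplete for Ern1 (63.0%), Aars (71.0%), Hspa5 (73.1%), Dnajb9 (76.6%) and Hsp90b1 (82.7%). Where in these genes reads were counted is not stated. Exosome, western blot and qPCR measurements were not analysed here.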

Additional observations from a re-analysis of the deposited data

Results flagged for a closer look

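For 4 members 2 comparisons of the same kind moved in opposite directions, with counting intervals that exclude 0 and values at least 0.5 apart on the log2 scale. With 1 library per condition none of these differences was tested.

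Dnajb9, a co-chaperone of BiP, was at -0.21 in RM0 against M0 and at 0.39 in RM1 against M1. Chac1, which degrades glutathione, was at 1.32 in RM1 against M1 and at -0.15 in RM2 against M2. Sdf2l1, an ER DNAJ partner, was at 0.45 in M1 against M0 and at -0.13 in RM1 against RM0. Ppp1r15a, which encodes GADD34, was at 0.22 in M1 against M0 and at -0.28 in RM1 against RM0. Under library totals Ppp1r15a was at -0.19 and -0.53 in these comparisons, so the opposite directions were lost, and Sdf2l1 was at 0.032 and -0.38. Dnajb9 and Chac1 kept opposite signs under totals.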

How the results depend on the processing

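With 1 library per condition, no difference between 2 libraries has a replicate check. No paired analysis was possible because no condition has replicates to pair by number, and the reported edgeR fit already compares irradiated with non-irradiated libraries within states. Each value here that differs from the reported one did so for a cause that was not tested, apart from the scaling itself. Scaling by library totals gave median log2 fold changes of the ER and the ATF4 genes of 0.13 and -0.50 for M1 against M0, 0.043 and -0.036 for M2 against M0, 0.26 and -0.34 in RM1 against RM0, 0.016 and -0.067 in RM2 against RM0, -0.11 and -0.01 in RM1 against M1, and -0.21 and -0.13 in RM2 against M2, with -0.10 for the ATF4 genes in RM0 against M0. The direction turned for the ER genes in M2 against M0 and RM2 against RM0. Under totals 1 member, Hspa5, was called higher in RM1 against RM0, and in the M1 state 9 members rose and 14 fell by edgeR's test. DESeq2 size factors gave 0.60 and -0.024 in M1 against M0. At 1.5-fold, 10 members were higher in RM1 against RM0 and 6 lower in RM1 against M1. Removal of the length trend gave 0.61 for the ER genes in M1 against M0, and -0.01 in RM1 against RM0 and -0.018 in RM1 against M1 for the ATF4 genes. Removal of the GC trend gave -0.052 in M2 against M0 and -0.043 in RM2 against RM0 for the ATF4 genes and -0.29 in RM1 against M1 for the ER genes. For irradiation, 1 member was lower by DESeq2 and 1 with a filter of 1 count, against 0 reported. Leaving out either library of a state leaves the irradiation effect to the other states, so these fits come in pairs and are not separate checks. With each library left out in turn, between 0 and 4 members were lower and between 0 and 1 higher after irradiation, and between 0 and 1 higher in the M2 state. Over all genes, 53 passed for irradiation in the reported fit, 114 by DESeq2, 668 without M0, 659 without RM0, 546 without M1, 545 without RM1 and 0 without the state term, and for the M2 state 28 passed in the reported fit, 41 by DESeq2, 1430 without M1 and 0 without the irradiation term. Without RM1 the M1 state rests on the M1 library alone. More members then passed for that state than in the reported fit, but so did more of all genes. No result reversed its direction while called.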
